A study of Homo sapiens with 6 samples.

Results

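The lysosomal genes described here are a named set of 39: acid hydrolases including the cathepsins and the sialidase NEU1, lysosomal membrane proteins, proton pump subunits and the transcription factors TFEB and TFE3. They were taken from all 19775 genes that the Affymetrix array measures with a probe set annotated to that gene alone, and 38 of the 39 had one. The exception was GLB1, the lysosomal beta-galactosidase, whose probe set is also annotated to another gene, so GLB1 is not analysed here. For each gene the probe set with the highest mean over the arrays was used, and one marked as prone to cross-hybridisation only where the gene had no other. All 38 lay above the limit for testing, a mean log2 value of 4, as did 10733 genes in all.

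Both groups are of the established human line Capan-1, grown from a pancreatic carcinoma, so all values rest on a single line. Cells transfected with siRNA against GNE (siGNE, 3 arrays) were set against cells labelled allStar-transfected, the control (3 arrays). Per the labels, both received 2 transfections with an interval of 48 h, and cells were collected 72 h after the last one. GNE encodes the bifunctional enzyme that starts sialic acid synthesis. Arrays numbered 1 to 3 in the titles form 3 pairs of 1 siGNE and 1 control array, and nothing in the labels says whether they came from separate cultures, so p-values measure a spread that may be technical.

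Lysosomes are acidic organelles in which hydrolases break down proteins, glycans and lipids delivered by endocytosis and autophagy. Most hydrolases reach them tagged with mannose 6-phosphate, a proton pump (the V-ATPase) keeps the lumen acidic, and heavily glycosylated membrane proteins such as LAMP1 and LAMP2 line the membrane. TFEB and TFE3 switch on many of these genes together through a short DNA element called CLEAR, whose core is CACGTG. The sialidase NEU1 removes terminal sialic acid from glycoproteins in lysosomes, and so acts on the sugar whose synthesis GNE starts.

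The core element was present in some of these promoters, and the sequences that carry it are shown to place the values that follow. RefSeq promoter windows (GRCh38.p14, 250 bases before to 50 after a gene's start) were at hand for 29 of the 39 genes, matched by symbol. CACGTG, which reads the same on both strands, occurred in a window of 9 of the 29 (31%), against 8.77% of the 27305 genes with a window and 7.26% of all windows. A longer form, the core with GT before it and AC after it, also the same on both strands, occurred in 2 of the 29 (6.9%), against 0.421% of the genes. A gene counted if any of its windows held the letters, and CD63 had 8 windows. Of the 9 promoters, 6 are printed 5′ to 3′ on the gene's strand with each CACGTG in capitals. NEU1, CTSA and CTSD are among the genes with the larger positive differences, and were picked after their values were seen. TFE3 and NPC1, with larger differences than NEU1 and CTSA, had no CACGTG in their windows. LAMP1 holds 6 copies, and GAA and MCOLN1 hold the longer form. The promoters of CD63, CLN3 and ATP6V0D1 are not printed.
NEU1, minus strand, chr6:31862922-31862967: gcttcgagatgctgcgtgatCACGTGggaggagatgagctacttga
CTSA, plus strand, chr20:45891273-45891335: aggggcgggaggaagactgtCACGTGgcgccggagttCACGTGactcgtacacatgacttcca
CTSD, minus strand, chr11:1763949-1763994: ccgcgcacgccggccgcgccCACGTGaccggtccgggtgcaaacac
LAMP1, plus strand, chr13:113297027-113297263: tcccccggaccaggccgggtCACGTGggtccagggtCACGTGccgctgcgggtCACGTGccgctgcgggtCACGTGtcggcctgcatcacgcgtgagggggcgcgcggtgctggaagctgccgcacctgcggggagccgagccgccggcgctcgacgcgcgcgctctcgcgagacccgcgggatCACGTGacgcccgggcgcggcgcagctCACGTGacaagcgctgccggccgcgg
GAA, plus strand, chr17:80101485-80101575: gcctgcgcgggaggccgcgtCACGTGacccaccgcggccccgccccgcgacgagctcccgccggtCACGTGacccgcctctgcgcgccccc
MCOLN1, plus strand, chr19:7522563-7522635: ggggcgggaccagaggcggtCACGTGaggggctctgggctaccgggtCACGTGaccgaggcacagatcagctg

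GNE itself was lower in every pair. Its only probe set read 8.39, 9.86 and 9.57 (log2) in siGNE cells, against 11.12, 11.47 and 10.86 in control cells, in the order of pairs 1 to 3. The siGNE level stood at 15%, 32.8% and 40.9% of its control in those pairs, and the groups did not overlap. GNE fell by 1.88 (SE 0.29) on the log2 scale in limma with the pair as a block (adjusted p = 0.0348, and 0.131 without the block). An exact permutation test (two-sided) gave p = 0.1, which is as low as a design of 3 against 3 can reach. The cells read as ductal epithelium: the 9 epithelial markers averaged 13.19 to 13.36 in siGNE cells and 13.02 to 13.23 in control cells. No macrophage marker (0 of 8, highest value 3.59) and no endothelial marker (0 of 6) had a mean above 4. Of 8 fibroblast markers 1 did, the collagen gene COL1A1, which rose by 0.71 (SE 0.13, limma adjusted p = 0.0441) and was higher in all 3 pairs. The 8 fibroblast markers averaged 3.33 to 3.49 in siGNE cells and 3.24 to 3.42 in control cells, and their part in the results was not tested. Of the epithelial markers CEACAM5 alone passed, rising by 0.56 (SE 0.11, limma adjusted p = 0.0491).

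After GNE silencing 1 of the 38 lysosomal genes passed the test. It was MANBA, the beta-mannosidase that cleaves the last mannose link in the breakdown of N-glycans, which rose 1.71-fold. Among the others, TFE3, CTSD and NPC1 had the highest positive differences and MAN2B1 and GAA the lowest negative ones, and these did not pass. In bulk RNA, fewer cells with a transcript and less of it per cell cannot be told apart. The test was limma with the pair as a block, an adjusted p under 0.05 over all 22085 tested probe sets counting as passed. By that rule 1 of 38 lysosomal genes rose (2.63%), against 4.11% of all tested genes, and 0 fell, against 5.79%. In either direction 9.89% of all tested genes passed. At an unadjusted p under 0.05 in limma, 9 of the 38 were higher (23.7%), against 13.7% of all tested genes, and 2 were lower (5.26%), against 18.8%. The median log2 difference (siGNE minus control) was 0.12 over the 38 genes and -0.02 over all tested genes, and the 38 ran from -0.39 to 0.77. Without the block in limma, MANBA did not pass and 0 of the 38 passed in either direction, where 0.028% of all tested genes passed. At an unadjusted p under 0.05 without the block in limma, 6 of the 38 differed (15.8%), against 16.3% of all tested genes.

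By direction, 16 of the 38 genes (42.1%) were higher in siGNE than in control cells in all 3 pairs, against 27% of all tested genes. Another 8 (21.1%) were lower in all 3 pairs, against 30.9%. For 12 of the 38 (31.6%) every siGNE value lay above every control value, against 9.42% of all tested genes, and for 1 (2.63%), MAN2B1, every siGNE value lay below, against 13.9%. The pairs were not alike. The median difference over the 38 genes was 0.18 in pair 1, 0.01 in pair 2 and 0.07 in pair 3, while over all tested genes it was -0.01, 0.00 and -0.02. Pair 1 gave the highest of the 3 differences for 21 of the 38 genes (55.3%) and for 33% of all tested genes, and it is also the pair with the lowest GNE level relative to its control. Whether those are connected was not tested. Without pair 1 the median over the 38 genes was 0.05. In the remaining pairs 18 genes rather than 16 were higher throughout, and 13 rather than 8 were lower throughout. With a pair left out such counts can only stay or rise, and the matching share of all tested genes was not counted.

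Several genes lay close to the threshold. At an adjusted p under 0.1 in limma, 7 of the 38 were higher in siGNE cells (18.4%), against 9.29% of all tested genes, and 1 was lower (2.63%), against 13.3%. Together these are 8 of 38 (21.1%), against 22.6%. They were MANBA, TFE3, CTSD, CTSA, NEU1, NPC1 and SCARB2 on the higher side and MAN2B1 on the lower. Only MANBA of the 38 reached a 1.5-fold difference (2.63%), against 10.1% of all tested genes. MANBA passed under 6 other settings of the fit with the block, and most of those near the threshold passed under at least 1, while NEU1 passed under none. Testing probe sets with a mean above 6 added TFE3, CTSD and NPC1 as higher and MAN2B1 as lower, with 7.48% of all tested genes higher and 19% passing in either direction. Quantile normalization added CTSD (5.43% higher, 12.3% in either direction) and median centring TFE3 and CTSD (5.74% and 12.6%). Trended and robust variance added TFE3, CTSA, CTSD, NPC1, SCARB2 and CD63 (6.97% and 16.8%). Averaging a gene's probe sets added CTSA and CTSD as higher and MAN2B1 as lower (6.1% and 15.2%), and a floor at 4 added none (4.2% and 10.2%). In these last 4 sentences the percentages are of all tested genes. MANBA, CTSA, CTSD and MAN2B1 have 1 probe set of their own each. Nothing was averaged for them, their differences stayed the same, and only the fit around them changed. For NPC1 the average differed by 0.20, against 0.47 for the probe set used, and includes probe sets below the limit for testing.

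**Figure D1:**
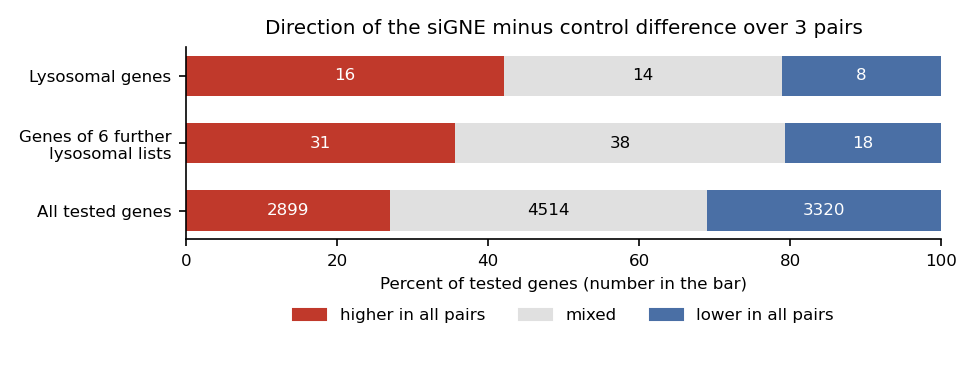
Share of tested genes (horizontal axis, percent) whose siGNE minus control difference was above 0 in all 3 pairs, mixed, or below 0 in all 3 pairs, for the 38 lysosomal genes, for the 87 tested genes of 6 further lysosomal lists and for all 10733 tested genes. The numbers in the bars are genes; the lysosomal genes split 16 to 8, and all tested genes 2899 to 3320.

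**Figure D2:**
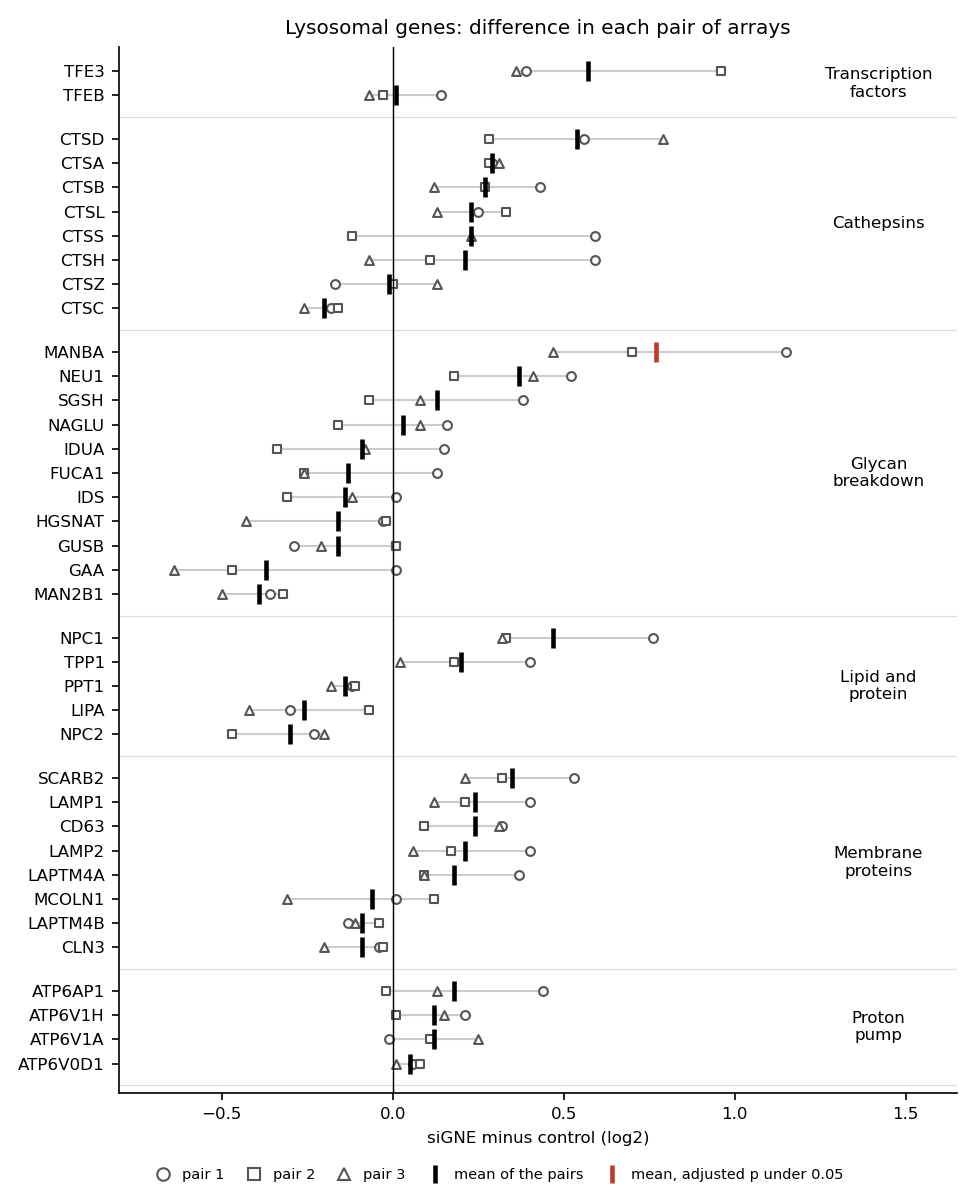
Difference between siGNE and control (horizontal axis, log2) for each of the 38 lysosomal genes in pairs 1, 2 and 3 (open symbols) with the mean of the pairs (bar), grouped by role and sorted within each group. MANBA, in red, is the 1 gene with an adjusted p under 0.05, at 0.77; TFE3, CTSD, NPC1, NEU1 and SCARB2 follow it on the right, and MAN2B1 and GAA lie furthest to the left.

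The 2 transcription factors differed from each other. TFE3 read 9.49, 9.55 and 8.76 (log2) in siGNE cells, against 9.10, 8.59 and 8.40 in control cells. It was higher in all 3 pairs, by 0.39, 0.96 and 0.36, although the groups overlapped, because both arrays of pair 3 read low. The mean difference of 0.57 (SE 0.15) did not pass in limma (adjusted p = 0.0759). Another probe set of TFE3 gave 0.45 (SE 0.10, limma adjusted p = 0.0581) and a further one 0.37 (limma adjusted p = 0.288). TFEB read 6.33, 6.33 and 6.46 in siGNE cells, against 6.19, 6.36 and 6.53 in control cells, so the values lay within one another's range. Its difference was 0.01 (SE 0.09) and that of its other probe set 0.34 (SE 0.27, limma adjusted p = 0.438).

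Among the 8 cathepsins, the proteases of the lysosome, none passed in limma, 4 were higher at an unadjusted p under 0.05 (13.7% of all tested genes were) and 4 had all siGNE values above the control values (9.42% of all tested genes had). CTSD, the main aspartic protease, read 9.99, 9.65 and 10.38 in siGNE cells, against 9.43, 9.37 and 9.59 in control cells, and the groups did not overlap. The difference of 0.54 (SE 0.12) came close to the threshold (limma adjusted p = 0.0607). CTSA, a serine carboxypeptidase that also holds NEU1 in an active complex, read 10.90, 10.92 and 10.79 in siGNE cells, against 10.61, 10.64 and 10.49 in control cells. Its difference was nearly the same in each pair, at 0.29, 0.28 and 0.31, with a limma adjusted p of 0.0869 for the mean of 0.29 (SE 0.08). CTSB, a cysteine protease, read 11.46, 11.48 and 11.56 in siGNE cells, against 11.03, 11.21 and 11.44 in control cells. CTSL, another cysteine protease, read 10.48, 10.27 and 10.27 in siGNE cells, against 10.23, 9.94 and 10.14 in control cells. Neither gene's groups overlapped. The differences were 0.27 (SE 0.10, limma adjusted p = 0.144) for CTSB and 0.23 (SE 0.09, limma adjusted p = 0.156) for CTSL. The other tested probe sets of CTSB gave 0.25, 0.06, -0.09 and -0.10, and the one at -0.09 was lower in all 3 pairs.

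By the probe sets used, the other 4 cathepsins gave smaller or mixed differences. CTSS, a cysteine protease best known from antigen-presenting cells, differed by 0.59, -0.12 and 0.23 in the 3 pairs (mean 0.23, SE 0.15), with macrophage markers at background as given above. Another probe set of CTSS, marked as prone to cross-hybridisation, gave 0.41 (SE 0.11, limma adjusted p = 0.0763) and was higher in all 3 pairs. A further one gave 0.16. CTSH, an aminopeptidase, differed by 0.59, 0.11 and -0.07 (mean 0.21, SE 0.15). CTSC, the dipeptidyl peptidase that activates granule proteases, was the only cathepsin of the 8 lower in all pairs by the probe set used. It differed by -0.18, -0.16 and -0.26 (mean -0.20, SE 0.08), and its other tested probe sets gave -0.09, 0.19 and -0.30. CTSZ, a carboxypeptidase, differed by -0.01 (SE 0.10), with a sign that turned under quantile normalization and median centring. For the probe sets used, the limma adjusted p of these 4 genes, in the order named, were 0.355, 0.394, 0.185 and 0.948.

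The enzymes of glycan breakdown, 11 measured of 12, differed in both directions, with a median of -0.13, and 1 passed. MANBA read 8.06, 7.71 and 7.69 in siGNE cells, against 6.91, 7.02 and 7.22 in control cells, a mean of 7.82 ± 0.21 against 7.05 ± 0.16 (SD, n = 3 arrays each). The groups did not overlap, and the pairs differed by 1.15, 0.70 and 0.47. MANBA rose by 0.77 (SE 0.15, adjusted p = 0.0473 in limma), just inside the threshold, and its adjusted p was 0.122 without the block, 0.295 with no filter on low values and 0.0969, 0.159 and 0.144 without pair 1, 2 or 3. MAN2B1, the lysosomal alpha-mannosidase that acts on other links of the same glycans, read 7.75, 7.75 and 7.77 in siGNE cells, against 8.10, 8.07 and 8.27 in control cells. This was the reverse order with no overlap, and its difference of -0.39 (SE 0.09) did not pass in limma (adjusted p = 0.0598).

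NEU1 read 10.66, 10.16 and 10.42 in siGNE cells, against 10.14, 9.98 and 10.01 in control cells. Every siGNE value lay above every control value, with pair differences of 0.52, 0.18 and 0.41. The mean of 0.37 (SE 0.10), or 1.29-fold, did not pass in limma (adjusted p = 0.0892, and 0.366 without the block). Its partner CTSA stood at 0.29, as given above. SLC17A5, or sialin, which carries the freed sialic acid out of the lysosome and is no member of the 39, differed by 0.47 (SE 0.11, limma adjusted p = 0.0586).

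The glycan enzymes that remain did not pass either. GAA, which degrades glycogen, read 9.01, 8.76 and 8.89 in siGNE cells, against 9.01, 9.23 and 9.53 in control cells. The arrays of pair 1 were equal to within 0.01 and the other pairs differed by -0.47 and -0.64 (mean -0.37, SE 0.15, limma adjusted p = 0.171). The heparan sulfate enzymes had means near 0: the sulfatases SGSH and IDS at 0.13 and -0.14, IDUA (alpha-iduronidase) at -0.09, NAGLU (a glucosaminidase) at 0.03 and HGSNAT (the membrane acetyltransferase) at -0.16, with limma adjusted p from 0.404 to 0.883. GUSB, the beta-glucuronidase, differed by -0.16 (SE 0.10) and FUCA1, the alpha-fucosidase, by -0.13 (SE 0.12). The IDS value depends on the probe set, since its other 5 tested probe sets gave 0.04 to 0.28. For HGSNAT the other tested probe sets gave -0.20, with all siGNE values below the control values, and -0.29 (limma adjusted p = 0.334 and 0.37).

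The carriers of cholesterol out of the lysosome had differences of opposite sign. NPC1, the membrane transporter, read 9.91, 9.38 and 9.27 in siGNE cells, against 9.14, 9.05 and 8.95 in control cells, with no overlap. NPC2, the soluble protein that hands cholesterol to NPC1, read 11.49, 11.43 and 11.98 in siGNE cells, against 11.72, 11.90 and 12.18 in control cells, and was lower in all 3 pairs although the groups overlapped. NPC1 differed by 0.47 (SE 0.12) and NPC2 by -0.30 (SE 0.10), and neither passed in limma (adjusted p = 0.0772 and 0.116). LIPA, the acid lipase that frees cholesterol from its esters, differed by -0.30, -0.07 and -0.42 in the pairs (mean -0.26, limma adjusted p = 0.169). PPT1, a thioesterase that removes palmitate from proteins, was also lower in all pairs, with a mean of -0.14 (SE 0.08). TPP1, a tripeptidyl peptidase, was higher in all pairs, with a mean of 0.20 (SE 0.11), while another of its probe sets gave -0.13 (SE 0.13). The last tested probe set of TPP1 gave 0.27 (SE 0.11) and was higher in all 3 pairs.

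Of the 8 membrane proteins, 5 read higher in siGNE cells with no overlap between the groups, against 9.42% of all tested genes. None passed in limma, and 1 was higher at an unadjusted p under 0.05, against 13.7% of all tested genes. SCARB2, or LIMP-2, which carries glucocerebrosidase to the lysosome, read 11.30, 11.28 and 11.20 in siGNE cells, against 10.77, 10.96 and 11.00 in control cells. Its difference was 0.35 (SE 0.10, limma adjusted p = 0.0927), and its other tested probe sets gave 0.48 and 0.31. LAMP1, the most used lysosomal marker, read 14.30, 14.21 and 14.04 in siGNE cells, against 13.91, 13.99 and 13.91 in control cells. LAMP2, its relative needed for autophagosome clearance, read 11.18, 11.03 and 10.90 in siGNE cells, against 10.78, 10.86 and 10.84 in control cells. The tetraspanin CD63 and the small membrane protein LAPTM4A completed the group. For LAMP1, LAMP2, CD63 and LAPTM4A the differences were 0.24, 0.21, 0.24 and 0.18, with limma adjusted p of 0.164, 0.242, 0.159 and 0.280. Pair 1 had the largest difference for each of these 5 genes.

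LAMP2 is the gene for which the choice of probe set changed the call. The probe set used for it gave 0.21 (SE 0.10), as above, and another 0.38 (SE 0.10, limma adjusted p = 0.0745). The one that passed rose by 0.51 (SE 0.09), its limma adjusted p being 0.0404, and 0.535 without the block. The last gave 0.03 (SE 0.08). Over all 38 genes, 14 had more than 1 tested probe set, with 34 further probe sets, of which 1 rose, 0 fell and 10, in 5 genes, pointed the other way from the probe set used for the gene. The share of all tested genes higher by the same limma rule was 4.11%, as above.

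**Figure D3:**
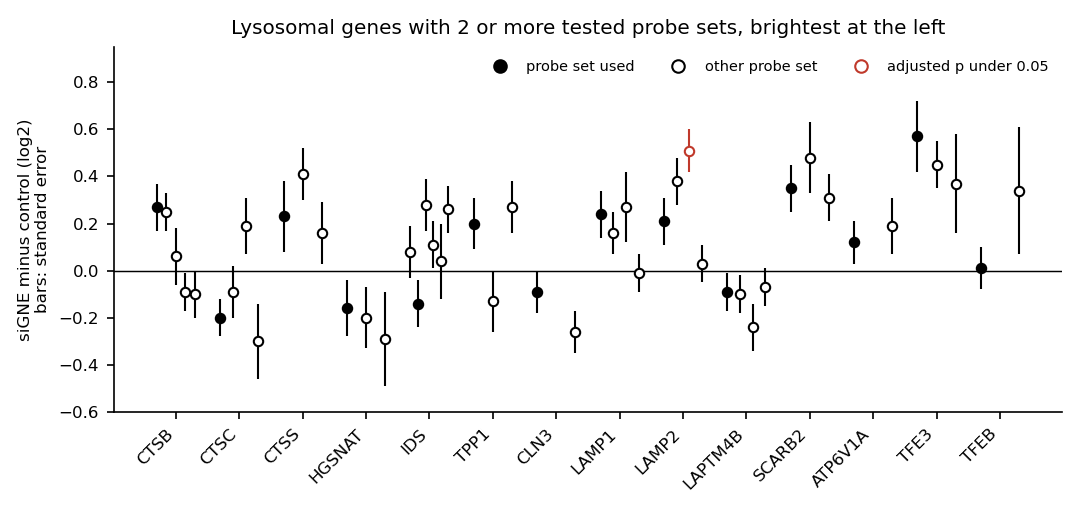
Difference between siGNE and control (vertical axis, log2, bars show the standard error from limma with the pair as a block) for each tested probe set of the 14 lysosomal genes that have 2 or more, with the one used filled. The probe set in red, of LAMP2, is at 0.51, while the probe sets of TFE3 and SCARB2 lie above 0 and those of CTSB, CTSC, IDS, TPP1 and LAMP1 fall on both sides.

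By the probe sets used, the last 3 membrane proteins and the proton pump stayed close to their controls. MCOLN1, the cation channel through which lysosomes release calcium, read 6.61, 6.40 and 5.59 in siGNE cells, against 6.60, 6.28 and 5.90 in control cells (difference -0.06, SE 0.12). CLN3, mutated in juvenile Batten disease, and LAPTM4B each differed by -0.09, and were lower in all 3 pairs. Another probe set of CLN3, marked as prone to cross-hybridisation, gave -0.26 (limma adjusted p = 0.139), with all siGNE values below the control values. Other probe sets of LAPTM4B gave -0.10, -0.24 and -0.07. Of the V-ATPase genes, the catalytic subunit ATP6V1A differed by 0.12, the regulatory subunit ATP6V1H by 0.12, the membrane-sector subunit ATP6V0D1 by 0.05 and the accessory protein ATP6AP1 by 0.18. For the probe sets used, the limma adjusted p of these 7 genes ran from 0.350 to 0.764, and standard errors from 0.08 to 0.12.

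**Figure D4:**
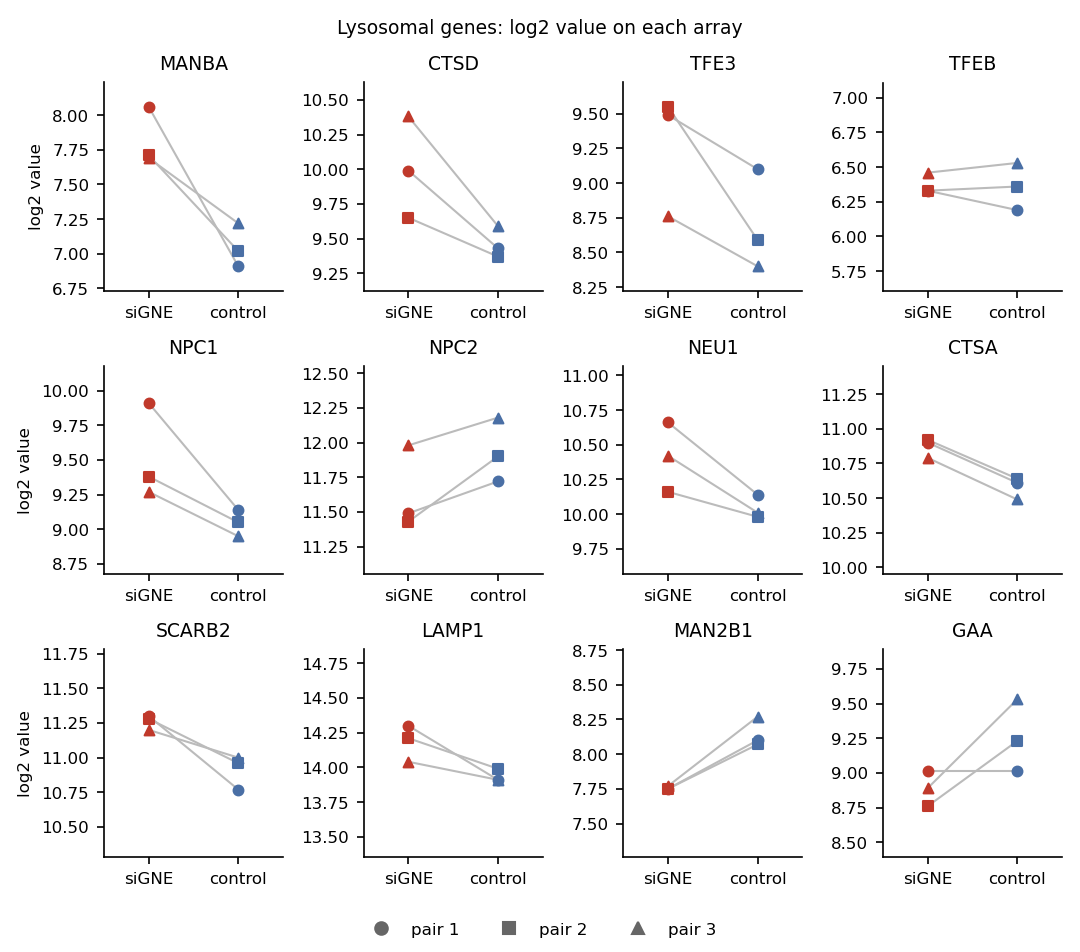
Log2 value on each array (vertical axis, a separate scale per gene spanning at least 1.5) of 12 lysosomal genes in siGNE and control cells, with a line joining the arrays of a pair. MANBA, CTSD, NPC1, NEU1, CTSA, SCARB2 and LAMP1 have all siGNE values above the control values, MAN2B1 has them below, and TFE3, TFEB, NPC2 and GAA overlap.

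Set against the promoter letters, the 9 genes with CACGTG had differences from -0.37 (GAA) to 0.54 (CTSD), with a median of 0.24 and 6 above 0. The 19 measured genes with a window and without those letters ran from -0.39 (MAN2B1) to 0.57 (TFE3), with a median of -0.01 and 9 above 0. MANBA, the only lysosomal gene that passed in limma, had no window, so it is outside this comparison and none of these 28 genes passed. Of the 28, 9 had an unadjusted p under 0.05 (32.1%, against 32.5% of all tested genes) and 7 an adjusted p under 0.1 (25%, against 22.6%). LAMP1, with 6 copies, differed by 0.24, and GAA and MCOLN1, with the longer form, by -0.37 and -0.06. The ranges overlapped almost completely, and this is a description of the letters in 1 window per gene start, not of binding.

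Further lysosomal genes were read from 6 lists: 30 other hydrolases and activators, 10 genes of mannose 6-phosphate sorting and sulfatase activation, 22 other membrane proteins and transporters, 20 other V-ATPase genes, 18 genes of nutrient sensing at the lysosome and 16 of lysosome fusion and positioning. Of these 116 genes 87 were tested, 6 rose and 2 fell in limma with the block, together 9.2%, against 9.89% of all tested genes. Their median difference was 0.07. None of the 8 passed without the block in limma, where 0.028% of all tested genes passed, and none passed with any 1 pair left out, where 0 genes passed in all.

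RRAGC, a Rag GTPase that brings mTORC1 and TFEB to the lysosome according to amino acid supply, rose most among the 87. It read 11.65, 11.55 and 10.85 in siGNE cells, against 10.46, 10.37 and 9.74 in control cells, with differences of 1.19, 1.18 and 1.12. It rose 2.24-fold, a log2 difference of 1.16 (SE 0.08, limma adjusted p = 0.0186), and its other tested probe set rose by 1.02 (limma adjusted p = 0.0245). No other gene of the nutrient sensing list passed (13 tested): the folliculin partner FNIP2 stood at -0.69, its relative FNIP1 at 0.24 and the kinase MTOR at -0.55, with limma adjusted p of 0.0644, 0.165 and 0.113.

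LAPTM5, a lysosomal membrane protein related to LAPTM4A and LAPTM4B and known mainly from blood cells (macrophage markers were at background, as given above), fell most among the 87. It read 5.34, 4.34 and 4.73 in siGNE cells, against 7.58, 6.48 and 6.40 in control cells. It fell by 2.02 (SE 0.14) on the log2 scale with a limma adjusted p of 0.0179, while its other probe set gave -0.79 (SE 0.34, limma adjusted p = 0.190). That other probe set differed by -1.81, -0.38 and -0.18 in the pairs. With a mean of 5.81 over the arrays, LAPTM5 was not tested in the run with a mean above 6. LAPTM4A (0.18) and LAPTM4B (-0.09) did not pass. Among the other 19 tested genes of its list, the chloride channel partner OSTM1 stood at 0.60, SLC17A5 at 0.47 and the ion channel TPCN2 at -0.35 (limma adjusted p = 0.0506, 0.0586 and 0.1), and another probe set of OSTM1 rose by 0.70 (limma adjusted p = 0.0348).

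The V-ATPase subunits ATP6V1D and ATP6V1E2 rose, by 0.52 (SE 0.09, limma adjusted p = 0.0385) and by 0.56 (SE 0.10, limma adjusted p = 0.0434). ATP6V1D read 10.52, 10.32 and 10.00 in siGNE cells, against 9.97, 9.90 and 9.43 in control cells. Both belong to the part of the pump that splits ATP, as do ATP6V1C1 (0.50, limma adjusted p = 0.0518) and ATP6V1E1 (0.29, limma adjusted p = 0.106), which did not pass. Of the other probe sets of ATP6V1C1, 1 gave 0.51 and the others -0.14 and -0.29, and their average with the one used differed by 0.15 (limma adjusted p = 0.32). With the probe sets of a gene averaged, ATP6V1D differed by 0.15 and did not pass in limma (adjusted p = 0.185). That average includes probe sets with means of 3.32 and 2.74, below the limit for testing. The other tested probe set of ATP6V1D gave 0.29 (limma adjusted p = 0.177) and was higher in all 3 pairs.

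Among the other hydrolases, the phospholipase PLA2G15 and the nuclease DNASE2 rose, by 0.69 (SE 0.09, limma adjusted p = 0.0282) and by 0.42 (SE 0.08, limma adjusted p = 0.0496). DNASE2 did not pass with trended and robust variance in limma (adjusted p = 0.0517), and its other probe set gave 0.26 (limma adjusted p = 0.281). PLA2G15 read 8.99, 8.50 and 8.18 in siGNE cells, against 8.20, 7.86 and 7.55 in control cells, an overlap that comes from pairs at different levels. GALC, which removes galactose from ceramide, stood at -0.47, and the sulfatase GALNS at 0.42 (limma adjusted p = 0.0581 and 0.0584). The other probe set of GALC fell by 0.60 (limma adjusted p = 0.0294). In the sorting list, none of 9 passed in limma, with 1 higher and 1 lower at an unadjusted p under 0.05, where 13.7% and 18.8% of all tested genes were. SUMF1, which activates the sulfatases, stood at -0.43, with all siGNE values below the control values (limma adjusted p = 0.0511). GNPTG, a subunit of the enzyme that makes the mannose 6-phosphate tag, stood at 0.30. The sorting adaptor GGA1 stood at 0.22 and NAGPA, which uncovers the tag, at 0.18. Other tested probe sets of GGA1 gave 0.10 and -0.02.

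The genes of fusion and positioning gave a rise and a fall in the same complex. VPS18 and VPS11 are core subunits of HOPS and CORVET, which tether endosomes and lysosomes. VPS18 read 8.75, 8.25 and 8.71 in siGNE cells, against 8.01, 7.66 and 7.87 in control cells, and rose by 0.72 (SE 0.09, limma adjusted p = 0.0284). With its probe sets averaged it differed by 0.63 and did not pass in limma (adjusted p = 0.0506). VPS11 read 5.94, 6.53 and 6.01 in siGNE cells, against 6.91, 7.07 and 6.49 in control cells, and fell by 0.66 (SE 0.13, limma adjusted p = 0.0459). VPS16, another core subunit, stood at -0.54 and RILP, the Rab7 effector, at 0.46, and these did not pass in limma (adjusted p = 0.0650 and 0.0682).

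**Figure D5:**
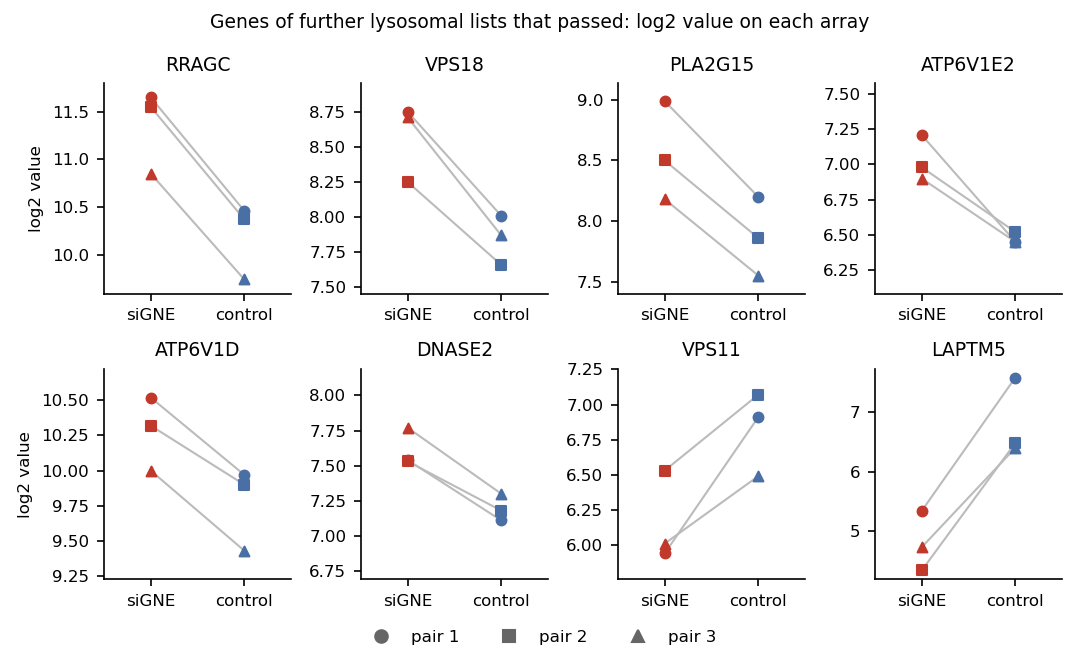
Log2 value on each array (vertical axis, a separate scale per gene) of the 8 genes of the 6 further lysosomal lists that passed in limma with the block, in siGNE and control cells, with a line joining the arrays of a pair. RRAGC, VPS18, PLA2G15, ATP6V1E2, ATP6V1D and DNASE2 are higher in siGNE cells in every pair, and VPS11 and LAPTM5 are lower.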

How the data were processed

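The authors deposited log2 expression values for 54675 probe sets on 6 arrays, made with GCRMA per the submitters' processing notes. Neither the GCRMA version nor joint processing of the 6 arrays is stated in those sources. The values themselves show the log2 scale (0.612 to 16.3, array medians 2.96 to 3.02). Values near 3 are close to background, so differences there can be lost. Biotinylated cRNA came from 300 ng of total RNA, per the labels' protocols. Arrays have no read depth, and their number limits the precision.

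Gene names came from the array's platform annotation, with symbols updated through a RefSeq gene table (GRCh38.p14). Of 54675, 41097 had 1 gene, 1801 several and 11777 none. The test was limma 3.58.1 (lmFit, eBayes; R 4.3.3), siGNE minus control, the title number as a block (2 residual degrees of freedom), and Benjamini-Hochberg adjustment over the 22085 probe sets with a mean above 4, without 62 control probe sets. The block was used because the rule for these genes pairs arrays by title number. As a check, deviations from the group means correlated at 0.576, 0.709 and 0.833 for arrays of the same number, above the limit of 0.1, and at -0.639 to 0.170 otherwise. The fit was also run on simulated data with known differences, to check the size of the estimates. That run does not bear on the calls given here.

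Counts over genes use 1 probe set a gene, chosen as the report states. Named genes are GNE, all 39 lysosomal genes and, of each further list, up to 4 with the smallest unadjusted p. Other probe sets, COL1A1, CEACAM5 and the printed promoters of NEU1, CTSA and CTSD were picked after their values were seen. The genes and lists were chosen with earlier results of these data known. The alternatives were no block, trended and robust variance, median centring or quantile normalization, no filter or a mean above 6, a floor at 4, averaging or changing the probe set, an adjusted p under 0.1, and leaving out each pair.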

Additional observations from a re-analysis of the deposited data

How the results depend on the processing

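The replicate block decides the calls: without it 0 of the 38 lysosomal genes rose against 1 with it, none of the 87 further genes rose or fell (0, against 6 and 2), and GNE stood at -1.88 without passing, as it also did with no filter on low values. With no filter 0 of the 38 and 0 of the 87 passed. A mean above 6 gave 4 rises and 1 fall among the 38 and 11 and 5 among the further genes. Quantile normalization gave 2 rises and median centring 3 among the 38, each with 10 rises among the further genes, and 3 and 2 falls there. Trended and robust variance gave 7 rises among the 38, and 9 rises and 6 falls among the further genes. Averaged probe sets gave 3 rises and 1 fall among the 38, and 7 rises and 5 falls among the further genes. Those of the 38 were genes with 1 probe set each, for which nothing was averaged. An adjusted p under 0.1 gave 7 rises and 1 fall among the 38, and 12 and 6 among the further genes. Over all tested genes the passing share moved too: it was 9.89% (1062 genes) with the block, 0.028% (3) without it, 0% with no filter (3672 genes at an unadjusted p under 0.05 in limma), 19% (1760) with a mean above 6, 16.8% (1805) with trended and robust variance and 15.2% with averaged probe sets. With 1 pair left out, 0 genes passed in limma, with 2459 to 2700 at an unadjusted p under 0.05, GNE ran from -2.17 to -1.45, and 8 to 13 of the 38 were lower in all remaining pairs. Those fits have 1 pair fewer, so their lack of calls says little about stability. A count over all remaining pairs can only stay or rise when a pair is left out.

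Of 38 genes, 31 kept their direction in every alternative run. The run that changed the probe set took only the next one of each gene. Further probe sets of CTSB, CTSC and LAMP1 pointed the other way and are not counted here. The sign turned for CTSZ with quantile normalization (0.01) and median centring (0.03), for IDS with averaged probe sets (0.07) and its second probe set (0.28), and for TPP1 with its second probe set (-0.13). With a pair left out, TFEB ran from -0.05 to 0.05, CTSZ from -0.08 to 0.07, NAGLU from -0.04 to 0.12, IDUA from -0.21 to 0.04 and MCOLN1 from -0.15 to 0.07. The causes were not tested. The median over the 38 moved by less than the spread between the pairs in every alternative run. The alternatives for the 87 further genes were chosen after seeing the data.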
